A study of Homo sapiens with 21 samples.

Results

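The genes for the mitochondrial ribosomal proteins were followed in HCT-116 cells, a human colorectal carcinoma line of epithelial-like cells, that had been given extracellular vesicles (EVs) from human serum. The members were the protein-coding genes on primary chromosomes with an MRPL or MRPS symbol followed by a number, pseudogenes left out. This rule found 78 of the 65065 genes of the count table, 49 with an MRPL and 29 with an MRPS symbol, spread over 21 chromosomes. The rule uses no expression value.

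EVs came either from serum of HCC patients (HCC+) or from serum of healthy people (HCC-), as the labels describe them, and each source was given at 1.2, 0.24 or 0.048 mg/mL. A blank group got no EVs, and all 7 groups grew in medium with exosome-depleted serum. Poly(A) RNA was sequenced in 3 libraries a group, 21 in all, of one cell line. Whether libraries of the same group were separate cultures is not in the labels. The p-values therefore measure only the spread between these libraries, which may be technical. The labels also do not say how many serum donors were pooled in an EV preparation, and no time of exposure is used here.

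The mitochondrial ribosome (mitoribosome) translates the few messenger RNAs made from mitochondrial DNA, all of which code for subunits of the oxidative phosphorylation system. Its ribosomal RNAs are made in the mitochondrion, whereas all of its proteins are made from nuclear genes, translated in the cytosol and imported. Part of these proteins have a counterpart in bacterial ribosomes, and the others are found in mitochondria only. By the unified naming of ribosomal proteins the members held 30 bacterial-type and 21 mitochondria-specific proteins of the large subunit, and 16 bacterial-type and 10 mitochondria-specific proteins of the small subunit. The remaining member, MRPS36, has since been assigned to the oxoglutarate dehydrogenase complex under the name KGD4.

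A sequence is shown for 6 members that the results below turn on: a faller from each of the 4 classes (MRPL24, MRPS10, MRPL58 and MRPS18B), a member not called at 1.2 mg/mL under the main scaling (MRPL27), and MRPS6, which rose. Each is the 250 bases before the RefSeq transcription start on GRCh38.p14, with motif matches in capitals. The 4 motifs searched, on both strands, were the ETS motif CCGGAAG bound by GABPA, the NRF1 core GCGCATGC, the YY1 motif AAGATGGCG and the E-box CACGTG bound by MYC. MRPL24, on the minus strand at chr1:156741089-156741338, held no match. MRPS10, on the minus strand at chr6:42217862-42218111, held 1 ETS match 22 bases before the start. MRPL58, on the plus strand at chr17:75012420-75012669, held 2 ETS matches. MRPS18B, on the plus strand at chr6:30617590-30617839, held 1 NRF1 match 23 bases before the start. MRPL27, on the minus strand at chr17:50373185-50373434, held 2 ETS matches. MRPS6, on the plus strand at chr21:34073328-34073577, held no match.
MRPL24: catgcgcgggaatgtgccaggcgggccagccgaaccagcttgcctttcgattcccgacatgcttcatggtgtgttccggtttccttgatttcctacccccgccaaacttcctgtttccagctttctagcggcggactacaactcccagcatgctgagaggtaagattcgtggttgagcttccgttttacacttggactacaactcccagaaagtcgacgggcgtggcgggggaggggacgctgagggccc
MRPS10: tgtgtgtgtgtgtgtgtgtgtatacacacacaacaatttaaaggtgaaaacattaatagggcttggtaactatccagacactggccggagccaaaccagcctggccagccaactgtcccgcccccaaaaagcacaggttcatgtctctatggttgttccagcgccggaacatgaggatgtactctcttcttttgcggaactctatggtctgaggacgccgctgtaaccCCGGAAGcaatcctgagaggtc
MRPL58: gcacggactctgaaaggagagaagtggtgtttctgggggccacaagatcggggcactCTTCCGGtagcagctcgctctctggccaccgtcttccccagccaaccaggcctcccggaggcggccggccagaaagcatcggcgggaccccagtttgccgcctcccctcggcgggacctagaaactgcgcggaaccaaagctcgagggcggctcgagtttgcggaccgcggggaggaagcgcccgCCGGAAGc
MRPS18B: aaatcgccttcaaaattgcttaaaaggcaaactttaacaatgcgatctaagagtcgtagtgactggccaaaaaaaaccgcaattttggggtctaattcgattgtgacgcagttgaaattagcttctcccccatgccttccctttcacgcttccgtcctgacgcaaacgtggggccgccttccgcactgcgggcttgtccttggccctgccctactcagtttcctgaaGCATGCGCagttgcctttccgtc
MRPL27: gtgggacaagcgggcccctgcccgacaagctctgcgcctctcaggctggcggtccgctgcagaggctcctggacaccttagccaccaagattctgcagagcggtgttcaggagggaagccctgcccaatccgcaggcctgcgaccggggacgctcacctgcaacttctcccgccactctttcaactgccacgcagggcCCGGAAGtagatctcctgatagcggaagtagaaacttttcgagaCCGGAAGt
MRPS6: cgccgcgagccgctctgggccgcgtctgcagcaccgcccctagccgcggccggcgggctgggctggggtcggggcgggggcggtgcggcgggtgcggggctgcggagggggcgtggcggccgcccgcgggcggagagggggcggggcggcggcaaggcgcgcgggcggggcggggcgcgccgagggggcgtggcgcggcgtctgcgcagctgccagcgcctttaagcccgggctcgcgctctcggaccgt

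RefSeq entries matched 69 of the 78 members, with 85 windows of 300 bases that also take in the 50 bases after the start. The ETS motif was in 33 of these 85 windows, 38.8%, against 10.3% of all 35116 windows and 15.4% of the windows of tested protein-coding genes. The YY1 motif was in 15.3% of member windows, 1.7% of all windows and 3.1% of those of tested genes. The NRF1 core was in 7.1%, 3.1% and 4.3%, and the E-box in 10.6%, 7.3% and 8.9%, in the same order. The E-box reads the same on both strands, an ETS match can overlap a YY1 match or an ETS match on the other strand, and NRF1 matches on opposite strands can overlap too. A match is a description of the letters, not of binding.

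The libraries ranged from 31.22 M to 64.01 M counts (M, 1e6). A filter on low counts kept 19556 genes for testing, which held 99.96% of all counts. Markers of the labelled cell type were present: 9 of 10 colon epithelial markers were tested, with a summed level of 3644 to 5140 CPM (counts scaled to a common library total) over all libraries. Levels are in CPM scaled by TMM, a method that sets the bulk of genes level between libraries. Groups are compared as a log2 fold change (a difference of 1 is a doubling), and a gene is called where the adjusted p of edgeR's quasi-likelihood test, over all tested genes, is under 0.05.

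77 of the 78 members passed the filter. MRPL53 had 0 counts in each of the 21 libraries, and 72.8% of its exon length is shared with CCDC142 on the same strand. MRPS24 had 2 to 29 counts a library and shares 23.2% of its exon length with the readthrough gene URGCP-MRPS24. How reads in shared exons were assigned is not given in the sources used here, so the level of these genes and of the 15 members with over 20% of exon length shared is uncertain.

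Per kilobase of exon, the highest member in the blank was MRPS34, a small subunit protein specific to mitochondria, at 112.5 ± 6.60 CPM per kilobase (SD, n = 3). It stood above MRPL51, of the large subunit, at 88.2 ± 3.37, and the libraries of these neighbours did not overlap. MRPL51 and the next members, MRPL41 at 84.7 ± 10.2 and MRPL18 at 82.0 ± 3.11, did overlap, as did MRPL18 and MRPL3 at 74.3 ± 4.83. The lowest tested members on this scale were MRPS18C at 3.18 ± 0.335, MRPL46 at 1.39 ± 0.0989, MRPL38 at 0.977 ± 0.159 and MRPS24 at 0.110 ± 0.0221. These 4 did not overlap one another, and MRPS18C and MRPL38 share 40.2% and 41.1% of their exon length with other genes.

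At 1.2 mg/mL most members were lower than in cells without EVs, with both sources. The summed level of the members was 5095 to 5364 CPM in the blank, 4260 to 4459 CPM with HCC+ and 3717 to 3759 CPM with HCC- at this dose. As a share of all counts, with no scaling, they took 0.498% to 0.508% in the blank, 0.450% to 0.459% with HCC+ and 0.432% to 0.438% with HCC-. On both measures the 3 groups did not overlap, and HCC- was lowest. In bulk RNA, fewer cells of a kind and less RNA per cell cannot be told apart.

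With HCC+ EVs at 1.2 mg/mL, 47 of 77 members fell and 1 rose, beside 17.4% of all tested genes called lower and 15.6% called higher. The median change of the members was -0.25 (log2), and that of all tested genes was 0.01. With HCC- EVs at 1.2 mg/mL, 63 of 77 fell and 1 rose, beside 28.5% of all genes lower and 24.8% higher. Here the median was -0.48 for the members and 0.05 for all genes. The 3 libraries lay all below the 3 blank libraries for 48 members with HCC+, beside 19.6% of all genes, and for 65 with HCC-, beside 28.0%. Both comparisons use the same blank libraries.

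**Figure D1:**
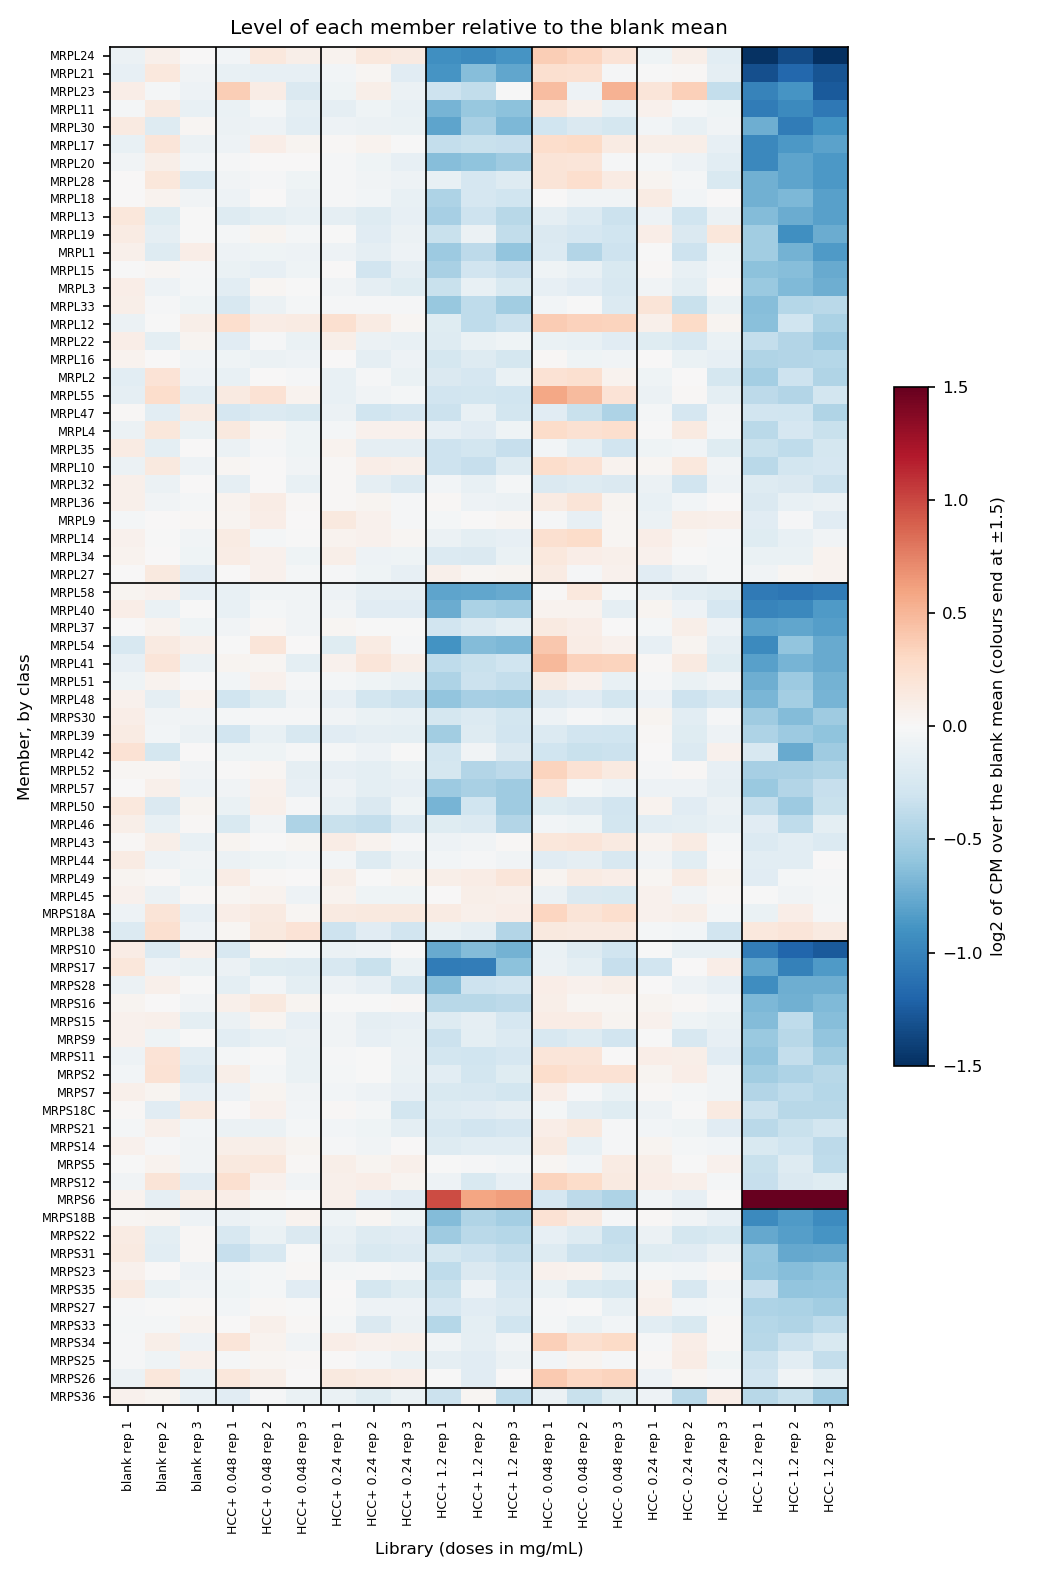
Level of 76 members (rows, by class and then by the change with HCC- at 1.2 mg/mL) in the 21 libraries (columns), as log2 of CPM over the blank mean, with colours ending at ±1.5 and MRPS24 left out for its few counts. From top to bottom the classes are large subunit bacterial-type, large subunit mitochondria-specific, small subunit bacterial-type, small subunit mitochondria-specific and MRPS36. The columns at 1.2 mg/mL are mostly blue in both sources and deeper in HCC-, MRPS6 alone is deep red there, and the columns at 0.24 mg/mL are pale.

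The level of a gene moved with its change in these comparisons, and this touches the counts above. Among all tested genes with a mean of 10 to 100 CPM, 26.0% were called lower with HCC+ at 1.2 mg/mL and 44.2% with HCC-, against 36 and 50 of the 59 members in that range. At 100 to 1000 CPM, 46.0% and 69.7% of all genes were called lower, against 9 and 11 of 13 members. In the range of 10 to 100 CPM the median change with HCC- was -0.13 for all genes and -0.465 for the members. At 100 to 1000 CPM these medians were -0.37 and -0.49.

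Scaling to the total count alone, instead of TMM, moved the median of all tested genes up by 0.12 with HCC+ and by 0.28 with HCC-. Under that scaling 29 members were lower and 4 higher with HCC+, and 40 were lower and 9 higher with HCC-. The members' median then lay 0.26 and 0.53 below that of all genes, as differences of log2 changes. With each library's trends over GC content and gene length removed, 44 were lower and 6 higher with HCC+, and 50 lower and 7 higher with HCC-. Under this removal 3 members called lower with HCC- were called higher, MRPL32 (from -0.24 to 0.24), MRPL47 (from -0.35 to 0.19) and MRPL50 (from -0.41 to 0.16), and MRPS36 went from -0.43 to 0.20 without a call. These 4 are named after their values were seen.

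Among the bacterial-type proteins of the large subunit, 19 of 30 fell with HCC+ and 25 of 30 with HCC- at 1.2 mg/mL. Of all tested genes 17.4% and 28.5% were called lower, and of those at 10 to 100 CPM 26.0% and 44.2%. MRPL24 (uL24m), whose bacterial counterpart starts the assembly of the large subunit, fell most of all members with both sources. Its level was 83.4, 92.9 and 88.9 CPM in the blank libraries, 46.7, 45.8 and 47.9 CPM with HCC+, and 31.6, 34.9 and 28.96 CPM with HCC-. The groups did not overlap, and HCC- lay below HCC+. The log2 change was -0.92 ± 0.073 (SE) with HCC+ (adjusted p 5.06e-11) and -1.48 ± 0.074 with HCC- (adjusted p 1.42e-16).

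MRPL21 (bL21m), another core protein of the large subunit, was at 45.3, 54.8 and 47.6 CPM in the blank, 26.6, 31.5 and 28.8 CPM with HCC+ and 19.7, 21.7 and 20.1 CPM with HCC-. It fell by 0.77 and by 1.27 on the log2 scale. MRPL11 (uL11m), at the base of the stalk where translation factors bind, was at 103.5 to 122.9 CPM in the blank, 69.2 to 75.6 CPM with HCC+ and 53.3 to 57.9 CPM with HCC-. It fell by 0.63 and by 1.02, and in both genes the 3 groups were apart. MRPL12 (bL12m), the mobile protein of that stalk, changed by -0.30 ± 0.092 (adjusted p 0.0121) and -0.46 ± 0.092 (adjusted p 7.21e-05). The first of these calls was lost without blank replicate 3 (-0.25) or HCC+ replicate 2 (-0.25), both were lost under the total count (-0.18 and -0.18), and 69.5% of the exon length of MRPL12 is shared with another gene.

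Some bacterial-type proteins of the large subunit were not called at 1.2 mg/mL. MRPL27 (bL27m), which lies near the peptidyl transferase centre, was at 63.7, 70.4 and 56.2 CPM in the blank, 66.9, 64.7 and 65.1 CPM with HCC+ and 61.0, 64.7 and 65.9 CPM with HCC-. All 3 groups overlapped, and the log2 changes were 0.05 ± 0.070 and 0.01 ± 0.070. MRPL27 was called higher with the GC and length trends removed (0.20 with HCC+ and 0.31 with HCC-) and, with HCC-, under scaling to the total count (0.29). MRPL36 (bL36m) changed by -0.04 and -0.13 and MRPL9 (bL9m) by 0.00 and -0.12, and neither was called. With HCC- these were 0.15 for MRPL36 and 0.16 for MRPL9 under the total count. MRPL4 (uL4m), which lines the exit tunnel, fell with HCC- (-0.33, adjusted p 0.000244) and had -0.12 (adjusted p 0.202) with HCC+. The HCC- call of MRPL4 was lost under the total count (-0.05), and MRPL4 was called lower with HCC+ with the trends removed (-0.30). MRPL3 (uL3m), close to the peptidyl transferase centre, fell by 0.22 with HCC+ and by 0.64 with HCC-, and MRPL10 (uL10m), which carries the stalk, fell by 0.28 and by 0.31. Both calls of MRPL10 were lost under the total count (-0.16 and -0.03). The HCC+ call of MRPL3 was lost without HCC+ replicate 1 (-0.16) or blank replicate 1 (-0.17), under the total count (-0.10) and with the trends removed (-0.04).

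Of the mitochondria-specific proteins of the large subunit, 12 of 20 tested fell with HCC+ and 14 of 20 with HCC-. These counts stand beside 17.4% and 28.5% of all tested genes. MRPL58, a peptidyl-tRNA hydrolase that frees stalled ribosomes and also sits in the large subunit, was at 68.9, 69.9 and 61.5 CPM in the blank. It was at 38.5, 38.9 and 39.4 CPM with HCC+ and at 31.9, 31.6 and 32.2 CPM with HCC-. The 3 groups were apart, with log2 changes of -0.78 ± 0.065 (adjusted p 1.26e-10) and -1.07 ± 0.065 (adjusted p 1.11e-14). MRPL40 (mL40) fell by 0.57 and by 0.93, and MRPL54 (mL54) by 0.74 and by 0.76. MRPL37 (mL37) was at 142.5 to 155.5 CPM in the blank, 122.1 to 134.6 CPM with HCC+ and 84.3 to 87.1 CPM with HCC-, and fell by 0.21 and by 0.80, the first a call lost under the total count (-0.09). MRPL44 (mL44), which carries an RNase III-like fold, was not called with either source (-0.04 and -0.10), nor were MRPL45, MRPL49 and MRPS18A. Under the total count all 4 were called higher with HCC- (0.18 for MRPL44, 0.25 for MRPL45, 0.21 for MRPL49 and 0.27 for MRPS18A). With the trends removed MRPL44 (0.155 and 0.24) and MRPL45 (0.23 and 0.26) were called higher with both sources, and MRPL49 with HCC+ (0.18).

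Among the bacterial-type proteins of the small subunit, 10 of 16 fell with HCC+ and 14 of 16 with HCC-, beside 17.4% and 28.5% of all tested genes. In this class 1 protein, MRPS6, rose with both, beside 15.6% and 24.8% of all genes called higher. MRPS10 (uS10m) was at 104.9, 84.7 and 102.9 CPM in the blank, 58.0, 62.3 and 59.5 CPM with HCC+ and 47.4, 42.7 and 40.8 CPM with HCC-. The groups did not overlap, and the log2 changes were -0.70 ± 0.079 (adjusted p 3.57e-08) and -1.16 ± 0.079 (adjusted p 1.25e-13). MRPS17 (uS17m) fell by 0.88 and by 0.87 from 8.06 to 9.68 CPM in the blank. MRPS12 (uS12m), in the decoding centre, had -0.14 (adjusted p 0.192) with HCC+ and was called lower with HCC- (-0.25, adjusted p 0.0106), a call lost without blank replicate 2 (-0.15) or HCC- replicate 1 (-0.19) and turned under the total count (0.04). MRPS2 (uS2m) was called with HCC+ (-0.21, adjusted p 0.0343) and with HCC- (-0.47), and the HCC+ call was lost without any of the HCC+ libraries (-0.22 to -0.17) or blank replicate 2 (-0.08) and under the total count (-0.085).

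Of the mitochondria-specific proteins of the small subunit, 6 of 10 fell with HCC+ and 9 of 10 with HCC-. These counts, too, stand beside 17.4% and 28.5% of all tested genes. MRPS18B (mS40) was at 119.3 to 129.6 CPM in the blank, 80.1 to 91.9 CPM with HCC+ and 65.3 to 70.1 CPM with HCC-. It fell by 0.54 and by 0.91, with the 3 groups apart. Of the other relatives of bacterial S18, MRPS18A had 0.10 and -0.01 and was not called, and MRPS18C had -0.16 (adjusted p 0.213) and -0.38 (adjusted p 0.00139). That call of MRPS18C was lost with the trends removed (-0.01) and under the total count (-0.10). MRPS35 (mS35) fell by 0.50 with HCC- and had -0.22 with HCC+ at an adjusted p of 0.0519. With the trends removed the HCC- call of MRPS35 was lost (-0.07) and the HCC+ value turned (0.008). MRPS30, now placed in the large subunit as mL65, fell by 0.25 and by 0.57. Both calls of MRPS30 were lost with the trends removed (-0.06 and -0.10), and the HCC+ call under the total count (-0.13). MRPS36 was at 19.1 to 21.7 CPM in the blank, had -0.21 (adjusted p 0.151) with HCC+ and fell by 0.43 with HCC-, a direction that turned with the GC and length trends removed (0.20).

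**Figure D2:**
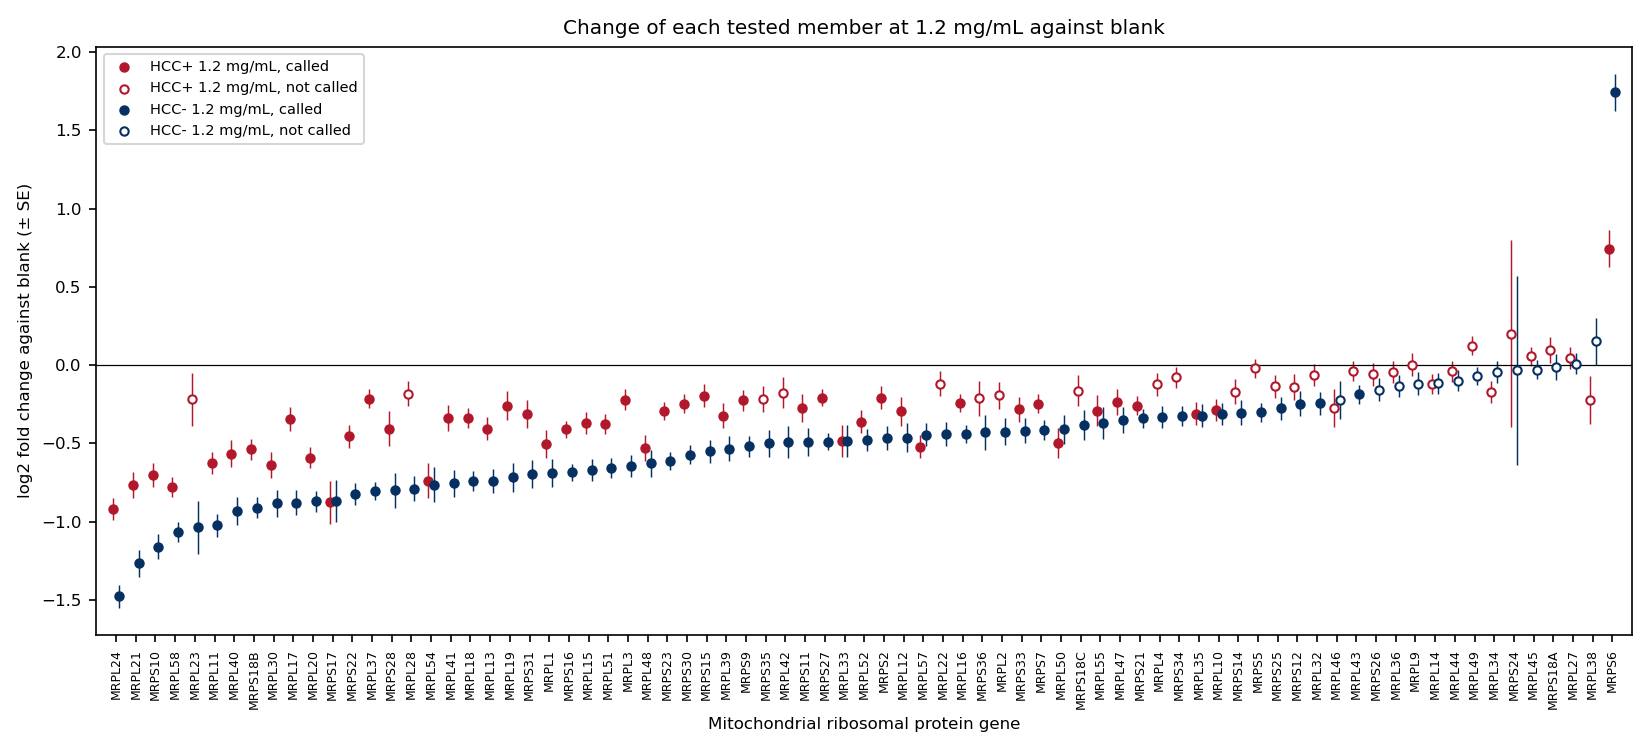
Log2 fold change against the blank, with its standard error, of the 77 tested members at 1.2 mg/mL of HCC+ (red) and HCC- (blue), ordered by the HCC- change, filled where called. 63 members are called below 0 with HCC- and 47 with HCC+, MRPL24 is lowest with both, and MRPS6 is the only member called above 0 under TMM scaling.

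MRPS6 (bS6m), a protein of the small subunit platform, went the other way. It was at 24.95, 21.9 and 25.6 CPM in the blank, 47.5, 36.5 and 37.3 CPM with HCC+ and 68.9, 69.5 and 103.7 CPM with HCC- at 1.2 mg/mL. The 3 groups were apart, with HCC- highest and its replicate 3 above the other two. The log2 change was 0.74 ± 0.118 (adjusted p 1.08e-05) with HCC+ and 1.74 ± 0.119 (adjusted p 1.42e-13) with HCC-, and without HCC- replicate 3 the latter was 1.53. At 0.24 mg/mL its level was 21.4 to 25.4 CPM with HCC+ and 22.1 to 24.3 CPM with HCC-, overlapping the blank. At 0.048 mg/mL of HCC- it was at 17.5 to 20.2 CPM, below all blank libraries, and was called lower (-0.37, adjusted p 0.0386). This call was lost with the GC and length trends removed, where no member was called lower. It was also lost without blank replicate 1 or 3 or HCC- replicate 2 at this dose. The GC content of MRPS6 is 41.0%, and changes in this comparison followed GC content, as given below.

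The gene SLC5A3, which codes for a myo-inositol transporter, shares the locus of MRPS6. The 300 bases around the RefSeq start are identical for these genes, and 9.5% of the exon length of MRPS6 is shared with other genes on the same strand, SLC5A3 among them. SLC5A3 was at 47.8, 31.5 and 40.9 CPM in the blank, 192.5, 120.4 and 105.8 CPM with HCC+ and 347.1, 251.4 and 376.3 CPM with HCC- at 1.2 mg/mL. It rose by a log2 change of 1.80 ± 0.212 and 3.02 ± 0.220 (adjusted p 9.14e-06 and 9.11e-09). What part of the MRPS6 counts came from transcripts that also hold SLC5A3 was not tested.

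**Figure D3:**
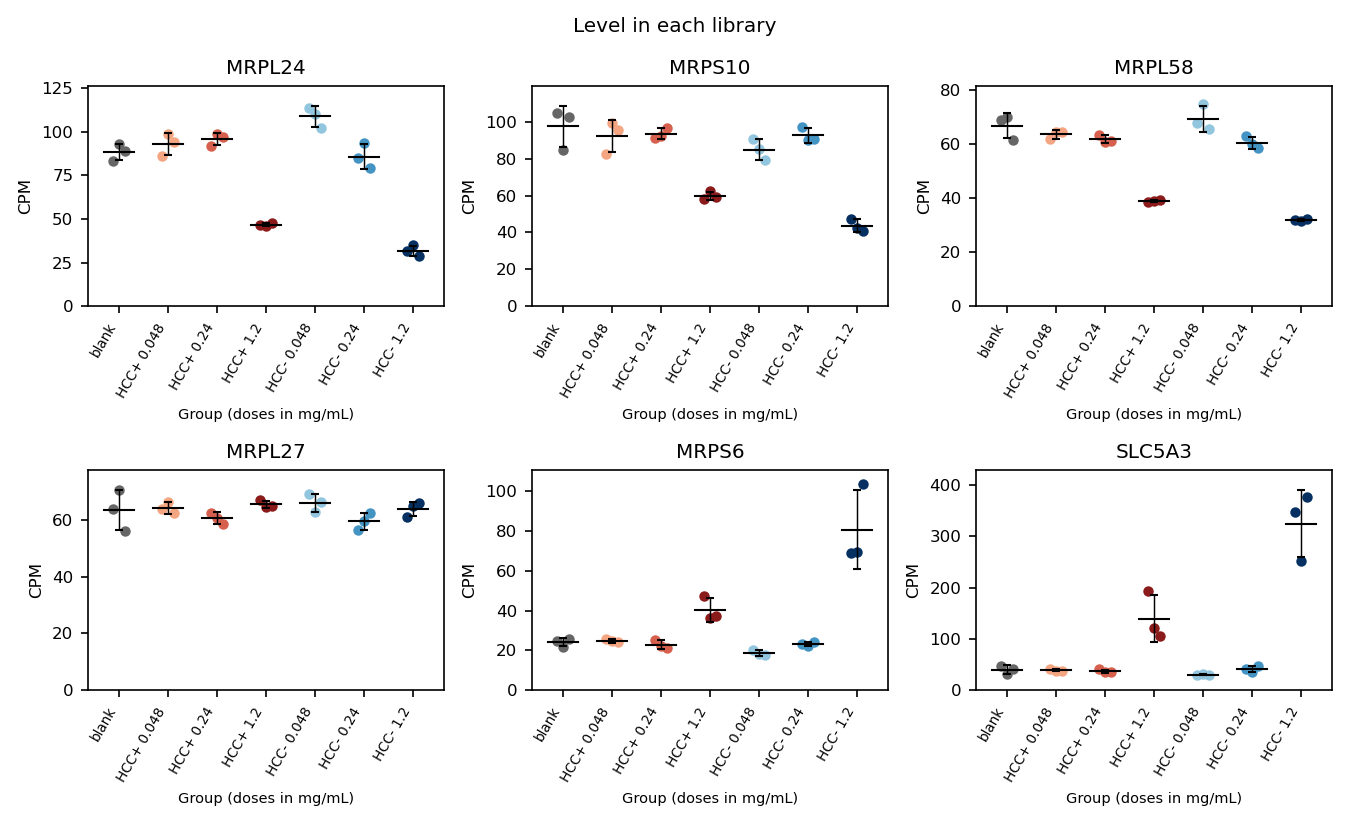
CPM in each library (points), with the mean and SD of each group (black line and bar, n = 3), for 5 members and for SLC5A3 over the 7 groups, each axis starting at 0. MRPL24, MRPS10 and MRPL58 are low in both groups at 1.2 mg/mL, the 3 groups of MRPL27 named in the text overlap, and MRPS6 and SLC5A3 are high at 1.2 mg/mL and highest with HCC-.

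At 1.2 mg/mL the sources were also compared with each other. 42 of 77 members were higher with HCC+ than with HCC-, beside 22.6% of all genes, and 2 were lower, beside 12.7%. The median difference was 0.22 for the members and 0.01 for all tested genes. Among genes of 10 to 100 CPM, 35.4% were called higher, against 30 of 59 members, and at 100 to 1000 CPM 57.5%, against 11 of 13. Under scaling to the total count, which moved the median of all genes by -0.16, 17 members were higher and 6 lower, and with the GC and length trends removed 32 were higher and 7 lower. By class, 18 of 30 bacterial-type and 9 of 20 mitochondria-specific proteins of the large subunit were higher, and 8 of 16 and 7 of 10 of the small subunit. The median of the class large subunit, mitochondria-specific was 0.13, and it was -0.03 under scaling to the total count.

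MRPL23 (uL23m), beside the exit of the nascent chain tunnel, had the largest difference above 0. It was at 16.6, 15.9 and 20.4 CPM with HCC+ and at 10.3, 11.2 and 8.58 CPM with HCC-, against 22.0, 20.2 and 19.5 CPM in the blank. The sources did not overlap, whereas HCC+ overlapped the blank, and HCC+ exceeded HCC- by 0.82 ± 0.170 (adjusted p 0.000513). MRPL28 (bL28m) was at 44.9 to 49.4 CPM with HCC+ and 29.3 to 32.6 CPM with HCC-, a difference of 0.60 ± 0.080 (adjusted p 4.8e-07). MRPL37 differed by 0.59, MRPL24 by 0.56, MRPL17 (bL17m) by 0.53, MRPL21 by 0.50, MRPL19 (bL19m) and MRPS10 by 0.46 each, and MRPL3 and MRPL41 by 0.42 each. Differences near 0 were those of MRPL33 (0.00), MRPL14 (0.00), MRPS17 (-0.01), MRPL35 (0.01) and MRPL10 (0.03). Under the total count these lay below 0 for MRPL33 (-0.16), MRPL14 (-0.17, called), MRPL35 (-0.15) and MRPL10 (-0.14), and MRPL35 was called lower with the trends removed (-0.20).

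The 2 members lower with HCC+ were MRPS6 (-0.998 ± 0.115, adjusted p 4.28e-08) and MRPL38 (-0.38 ± 0.149, adjusted p 0.0491). MRPL38 was at 2.64 to 3.35 CPM with HCC+, 3.92 to 4.06 CPM with HCC- and 3.11 to 4.23 CPM in the blank. Its call was lost when any library of HCC- or replicate 2 or 3 of HCC+ was left out (-0.43 to -0.28). Against the blank MRPL38 with HCC- was not called (0.15), and it was called higher under the total count (0.43).

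At 0.24 mg/mL no member was called against the blank with either source, and the sources did not differ for any member. By edgeR's adjusted p, all genes gave 0.0% lower and 0.00511% higher with HCC+, and 0.0% in each direction with HCC- and between sources. At an unadjusted p under 0.05, 5 members were lower with HCC+ and 5 with HCC-, none were higher, and 1 was higher with HCC+ than with HCC-. Of all genes 2.6% and 2.0% were lower at that threshold, 3.5% and 2.7% higher, and 1.1% higher with HCC+ than with HCC-. DESeq2 also called 0. The members' medians were -0.07 with HCC+ and -0.04 with HCC-. Summed levels were 5013 to 5194 CPM and 5048 to 5257 CPM, within or just under the 5095 to 5364 CPM of the blank.

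The difference between 1.2 and 0.24 mg/mL leaves the blank aside. With HCC+ 37 members were lower and 1 higher at 1.2 mg/mL, beside 15.5% and 13.7% of all genes, with a median of -0.17. With HCC- 63 were lower and 1 higher, beside 28.0% and 23.9%, with a median of -0.43. These 2 comparisons have no library in common. Over the 77 members their changes went together with a Pearson r of 0.789 and a Spearman rho of 0.736, and with 0.794 and 0.749 over 75 without MRPS6 and MRPS24. Over all 19556 tested genes the values were 0.558 and 0.571. Of these genes 6080 had a mean under 1 CPM, as did 1 member, and no value was taken for genes of like level. The correlations are descriptions across genes, which are not independent, and the libraries share the cell line.

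The change of the source difference from 0.24 to 1.2 mg/mL was tested as an interaction. It was above 0 (a smaller fall with HCC+ than with HCC-, in most of these members) for 30 of 77 members, beside 15.1% of all genes, and below 0 for 1, MRPS6, beside 6.26%. The members' median was 0.22 and that of all genes 0.03. Among genes of 10 to 100 CPM, 23.8% were above 0, against 22 of 59 members, and at 100 to 1000 CPM 43.4%, against 7 of 13. MRPL37 had 0.58 ± 0.083 (adjusted p 6.31e-06), MRPL18 (uL18m) 0.49 ± 0.090 (adjusted p 0.000164), MRPL28 0.58 ± 0.112 (adjusted p 0.000295) and MRPS27 (mS27) 0.34 ± 0.075 (adjusted p 0.00122). MRPS6 had -0.98 ± 0.165 (adjusted p 5.7e-05). The call of MRPS27 was lost under the total count (0.19). Scaled to the total count, 10 members were above and 1 below 0, and with the GC and length trends removed 23 were above and 3 below.

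At 0.048 mg/mL members were called against the blank with HCC- only. The direct comparison of the sources at this dose, given below, called 3 of 77 members. With HCC+ no member was called by edgeR or DESeq2, beside 0.0% of all genes, and at an unadjusted p under 0.05 there were 5 members lower and 0 higher, beside 2.1% and 2.7% of all genes. With HCC- 11 members were called lower and 12 higher, beside 8.16% and 8.28% of all genes, with a median of 0.01. Among genes of 10 to 100 CPM, 14.2% were called lower and 13.7% higher, against 9 and 11 of 59 members. At 100 to 1000 CPM these shares were 20.2% and 21.8%, against 2 and 1 of 13 members. Higher members included MRPL41 (0.39, adjusted p 0.00735; 45.4, 56.1 and 46.3 CPM in the blank against 69.3, 62.9 and 62.0 CPM), MRPS26 (0.34), MRPS34 (0.30), MRPL55 (0.43), MRPL24 (0.30), MRPL12 (0.36) and MRPL4 (0.25). Lower ones included MRPL47 (-0.32), MRPL1 (-0.31) and MRPS9 (-0.24).

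These changes followed GC content, the share of G and C bases in the longest transcript of a gene. Of the 30 members under 45% GC, 9 were called lower and 1 higher; of the 27 from 45% to 55%, 2 and 2; and of the 20 at 55% or more, 9 were called higher. Over the 77 members GC content and change had a Pearson r of 0.802 and a Spearman rho of 0.826, and over 19500 tested genes 0.330 and 0.539. The tested genes were not matched to the members by level. The median changes by GC class were alike for members and all tested genes. They were -0.19 and -0.21 under 45%, 0.04 and 0.02 from 45% to 55%, and 0.22 and 0.22 at 55% or more. With the GC and length trends of each library removed, 2 members were called higher and none lower. Leaving out blank replicate 1 or 3 gave 0 calls in each direction, leaving out blank replicate 2 gave 19 lower and 18 higher, and leaving out HCC- replicate 2 at this dose gave 0 lower and 6 higher. The members' change against the blank also went with GC content in the groups without calls, with a Pearson r of 0.512 (HCC+ at 0.24 mg/mL), 0.428 (HCC+ at 0.048 mg/mL) and 0.313 (HCC- at 0.24 mg/mL). At 1.2 mg/mL the members' r was -0.001 with HCC+ and -0.042 with HCC-, and that over all genes was 0.169 and 0.186.

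**Figure D4:**
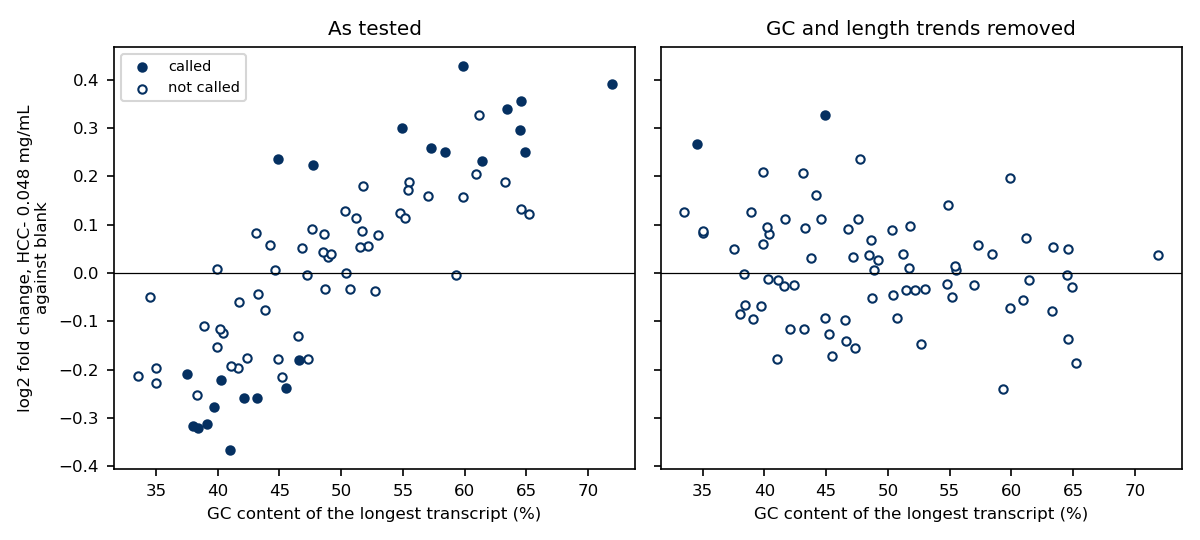
Log2 fold change of 76 members (MRPS24 left out) with HCC- at 0.048 mg/mL against the blank, by GC content in percent, as tested (left, 11 members called lower and 12 higher) and with the GC and length trends of each library removed (right, 2 called higher). The left points rise from low to high GC content, and the right points lie flat about 0.

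Between sources at 0.048 mg/mL, 3 members were lower with HCC+ than with HCC-, beside 2.46% of all genes lower and 1.08% higher: MRPL41 (-0.41), MRPL52 (-0.27) and MRPS34 (-0.23). No member was higher by edgeR's adjusted p. At an unadjusted p under 0.05, 20 members were lower and 6 higher, beside 12.4% and 11% of all genes, and DESeq2 called 12 lower and 2 higher. The 3 calls were lost without HCC+ replicate 2 or 3 or HCC- replicate 1 or 2 (0 lower).

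Other parts of the mitochondrial translation apparatus were read from lists of genes. Of the 5 mitoribosomal proteins without an MRP symbol, 4 fell with HCC+ and 5 with HCC- at 1.2 mg/mL, beside 17.4% and 28.5% of all tested genes. DAP3 (mS29), a GTP-binding protein of the small subunit, was at 145.4 to 156.9 CPM in the blank, 106.3 to 111.3 CPM with HCC+ and 84.9 to 93.0 CPM with HCC-, and fell by 0.46 and by 0.76. PTCD3 (mS39) fell by 0.30 and by 0.52, AURKAIP1 (mS38) by 0.33 and by 0.56 and CHCHD1 (mS37) by 0.37 and by 0.29. GADD45GIP1 (mL64) had -0.16 (adjusted p 0.116) with HCC+ and fell by 0.30 with HCC-.

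The mitochondrial ribosomal RNAs were lower too, as far as poly(A) libraries catch them. MT-RNR1, the RNA of the small subunit, was at 3638 to 4170 CPM in the blank, 1329 to 1531 CPM with HCC+ and 1445 to 1823 CPM with HCC- at 1.2 mg/mL, with log2 changes of -1.41 ± 0.157 and -1.23 ± 0.156. MT-RNR2, the RNA of the large subunit, was at 7525 to 8679, 5086 to 5810 and 5112 to 5432 CPM, with -0.56 ± 0.072 and -0.61 ± 0.072. For neither RNA did the sources differ past the threshold (adjusted p 0.40 and 0.594). At the other doses MT-RNR1 ranged from 2504 to 5047 CPM. Of the 15 mitochondrially encoded RNAs 4 fell with HCC+ (median -0.11) and 11 with HCC- (median -0.33), beside 17.4% and 28.5% of all tested genes. Both ribosomal RNAs lay above 1000 CPM, where 63.5% and 81.2% of all genes were called lower, with medians of -0.22 and -0.41. The HCC+ median of the mitochondrially encoded RNAs was 0.01 under scaling to the total count and 0.08 with the GC and length trends removed.

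The counts of the next lists at 1.2 mg/mL stand beside 17.4% (HCC+) and 28.5% (HCC-) of all tested genes called lower. Of 26 genes for mitoribosome assembly and rRNA modification, 8 fell with HCC+ and 13 with HCC-, with medians of -0.15 and -0.20. Under scaling to the total count the HCC- median of this list, mitoribosome assembly and rRNA modification, was 0.08. Of 17 translation factor genes, 10 and 11 fell, with medians of -0.28 and -0.47. Among them the recycling factor MRRF changed by -0.63 and -1.07 and the initiation factor MTIF2 by -0.70 and -0.83. Of 18 genes for mitochondrial transcription and RNA, 8 and 11 fell, with medians of -0.18 and -0.385. LRPPRC, which stabilises mitochondrial messenger RNAs, changed by -0.51 and -1.05. Of 8 tested regulator genes, 5 and 7 fell. NRF1, a transcription factor for nuclear genes of mitochondrial proteins, changed by -0.69 and -0.86, GABPA, the DNA-binding part of an ETS-type factor of such genes, by -0.30 and -0.74, and MYC by -0.28 and -0.18.

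Members with and without each promoter motif were set side by side at 1.2 mg/mL. Of all tested genes, whatever their motifs, 17.4% were called lower with HCC+ and 28.5% with HCC-. Of the 29 tested members with the ETS motif, 20 fell with HCC+ and 25 with HCC-, with medians of -0.29 and -0.61. Of the 39 matched members without it, 21 and 29 fell, with medians of -0.21 and -0.445. Of the 13 with the YY1 motif, 5 and 8 fell, and of the 55 without it, 36 and 46. Of the 9 with the E-box, 3 and 5 fell (medians -0.12 and -0.38), and of the 59 without it, 38 and 49 (-0.26 and -0.49). Of the 6 with the NRF1 core, 3 and 6 fell (-0.255 and -0.46), and of the 62 without it, 38 and 48 (-0.24 and -0.48). The numbers with a motif are small, and the differences were not tested. Changes of other tested genes with these motifs were not counted.

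Beside 2 other groups of nuclear genes, the members were not alone in falling. Of 81 tested cytosolic ribosomal protein genes, 66 fell with HCC+ and 72 with HCC- at 1.2 mg/mL, with medians of -0.28 and -0.38. Of 82 tested nuclear genes for oxidative phosphorylation subunits, 56 and 70 fell, with medians of -0.30 and -0.60. Of all tested genes 17.4% and 28.5% were called lower. At 100 to 1000 CPM these shares were 46.0% and 69.7%, with medians of -0.145 and -0.37. At 1000 CPM or more they were 63.5% and 81.2%, with medians of -0.22 and -0.41. The 2 groups were not compared with genes of like level. Higher with HCC+ than with HCC- were 23 of 81 cytosolic ribosomal protein genes (median 0.10) and 62 of 82 oxidative phosphorylation genes (median 0.34), beside 42 of 77 members (median 0.22). Of all tested genes 22.6% were higher in this comparison. The median of the cytosolic ribosomal proteins turned to -0.07 under scaling to the total count and to -0.002 with the GC and length trends removed.

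**Figure D5:**
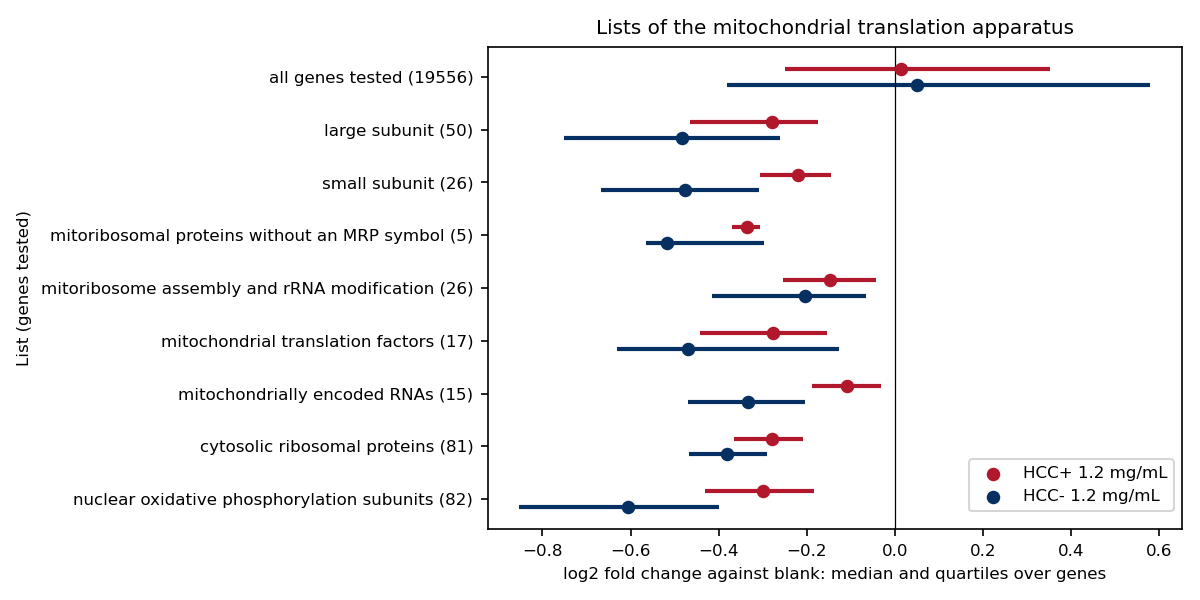
Median log2 fold change against the blank (points) with the lower and upper quartile over genes (lines) at 1.2 mg/mL of HCC+ (red) and HCC- (blue), for all tested genes and for 8 lists, with the number of tested genes in brackets. The median of all tested genes lies near 0, and the medians of both mitoribosomal subunits lie at -0.28 and -0.22 with HCC+ and at -0.48 for each with HCC-.

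Some markers of other cells and nuclear RNAs moved with the dose as well. At 1.2 mg/mL all 3 tested of 8 leukocyte markers were called higher with both sources, with a summed level of 1.15 to 1.55 CPM in the blank, 2.97 to 4.19 CPM with HCC+ and 5.09 to 6.96 CPM with HCC-, while S100A8 and S100A9 were at 0 in all libraries. Both tested endothelial markers of 3 were higher, with 0.508 to 0.591, 2.58 to 3.28 and 5.70 to 7.81 CPM. COL1A1, the 1 tested of 3 fibroblast markers, was higher (0.75 and 0.99), and the summed list ranged from 14.2 to 17.7 CPM in blank libraries, from 21.3 to 30.7 CPM for HCC+ and from 28.3 to 34.1 CPM for HCC-. Of 2 tested erythroid markers, 0 were called with HCC+ and 1 was higher with HCC-. Of 2 tested hepatocyte markers, 1 was higher with HCC+ and 0 were called with HCC-. Of 2 tested platelet markers, 0 were called with HCC+ and 1 was lower with HCC-. Of the 9 tested colon epithelial markers, CLDN3, CLDN4 and ELF3 were higher with both sources, and EPCAM (-0.31), KRT8 (-0.27) and KRT18 (-0.46) were lower with HCC-. Of the nuclear RNAs read as signs of RNA quality, NEAT1 (0.96 and 1.71) and KCNQ1OT1 (0.74 and 1.60) were higher and MALAT1 was not called (0.35 and 0.31). Their part in the changes of the members was not tested.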

How the data were processed

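Per the labels, cells grew in DMEM, RNeasy gave the RNA and a NEBNext Ultra II kit the libraries. Per the submitters' processing notes, reads were processed with cutadapt 3.4, HISAT2 2.2.1 and featureCounts 2.0.1 on GRCh38. The deposited values are raw counts per gene. For annotation release, strandedness and multimapping: not given in the sources used here. Among the members 36 have 79 pseudogenes of their symbol.

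All 21 libraries entered 1 model of 7 group means in edgeR 4.0.16 (R 4.3.3), with TMM factors, filterByExpr, robust quasi-likelihood F tests, 2-sided, 14 residual degrees of freedom and Benjamini-Hochberg adjustment over all 19556 tested genes. SE was taken as fold change (log2) divided by the square root of F. The method was tested on simulated data. Alternatives were RLE factors, total count alone, no filter, DESeq2 1.42.0, a replicate block, GC and length trends removed (set by 12251 genes), only the groups compared, each library left out and, chosen after seeing the data, only members with at most 20% of exon length shared.

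The members and lists were chosen with earlier results of these data known. Named genes were those with the largest changes, those nearest 0, members called at lower doses or in the interaction, the highest and lowest in the blank, and genes fixed by role. Other genes, such as SLC5A3, were named after their values were seen. Library totals of 31.22 M to 64.01 M (M, 1e6) set the precision of genes with few counts. Figures were drawn with matplotlib 3.10.9.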

Additional observations from a re-analysis of the deposited data

Results flagged for a closer look

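For 31 members the difference between sources itself changed from 0.24 to 1.2 mg/mL, by the interaction in edgeR's quasi-likelihood test over all tested genes. Of all tested genes 15.1% were above 0 and 6.26% below 0 in this test. At 10 to 100 CPM 23.8% of all genes were above 0, against 22 of 59 members, and at 100 to 1000 CPM 43.4%, against 7 of 13. Fewer members were called under scaling to the total count, as given above. The values, as log2 differences of HCC+ minus HCC- at 1.2 mg/mL less the same at 0.24 mg/mL, were above 0 for MRPL23 (0.93), MRPL28 (0.58), MRPL37 (0.58), MRPL19 (0.57), MRPL17 (0.53), MRPL21 (0.52), MRPL18 (0.49), MRPL11 (0.49), MRPL3 (0.49), MRPS28 (0.48), MRPS10 (0.44), MRPS15 (0.43), MRPS31 (0.43), MRPL24 (0.40), MRPL40 (0.40), MRPL15 (0.38), MRPS30 (0.37), MRPS18B (0.35), MRPS35 (0.35), MRPS27 (0.34) and MRPS22 (0.34), MRPS2 (0.33), MRPL13 (0.33), MRPS23 (0.33), MRPL51 (0.29), MRPS16 (0.28), MRPS9 (0.27), MRPS5 (0.26), MRPL20 (0.26), MRPL58 (0.26). The value was below 0 for MRPS6 (-0.98). In the members with a value above 0 the level fell more with HCC- than with HCC+ between these doses, and in MRPS6 it rose more with HCC-. NEAT1 had -0.65 and SLC5A3 -1.06 in the same test (adjusted p 0.000267 and 0.017), and their part in the members' values was not tested.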

How the results depend on the processing

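Directions at 1.2 mg/mL held for the members' medians under every alternative run, but sizes and counts moved. Shares of all tested genes called are given in this text for TMM scaling only. With the total count alone the members called lower and higher were 29 and 4 (HCC+ against blank, median -0.13), 40 and 9 (HCC-, -0.20), 24 and 5 (HCC+ 1.2 against 0.24 mg/mL, -0.067) and 36 and 8 (HCC-, -0.17). For HCC+ against HCC- at 1.2 mg/mL they were 6 lower and 17 higher (0.054), 2 were higher at 0.048 mg/mL, and the interaction had 10 higher (0.069). With GC and length trends removed 6 and 7 members were higher against the blank (medians -0.17 for HCC+ and -0.26 for HCC-) and 7 and 8 between doses (-0.22 for HCC-), 7 were lower between sources at 1.2 mg/mL (0.093, 0.094 with the replicate block) and 3 were lower in the interaction (0.12). With the replicate block added to this removal the other values were the same to 2 decimals, with -0.14 for HCC+ between doses.

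At 0.048 mg/mL, HCC- against the blank gave 0 lower and 2 higher with the trends removed, 0 and 3 with the block added, and 6 and 6 with only the groups compared. Between sources at this dose the lower and higher calls were 7 with RLE factors, 6 and 3 without the filter, 7 and 1 with the replicate block, 1 with the trends removed (also with the block), 17 and 6 with only the groups compared and 12 and 2 with DESeq2. MRPL38 was lost at 1.2 mg/mL without the filter and with only the groups compared, and is not among the members with at most 20% of exons shared, each leaving 1 lower.

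Leaving out each library in turn gave medians of -0.50 to -0.43 for HCC- at 1.2 mg/mL and -0.023 to 0.055 at 0.048 mg/mL, 0 to 19 lower and 0 to 18 higher for HCC- at 0.048 mg/mL, and 1 to 2 lower at 1.2 and 0 to 4 lower at 0.048 mg/mL between sources. HCC+ against the blank at 1.2 mg/mL ranged from 36 to 46 lower, HCC- from 60 to 64.

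Values of genes named by the rule that turned past 0, with a call under at least 1 of the settings compared, were with the total count alone, for HCC- at 1.2 mg/mL, MRPS18A (0.27), MRPL45 (0.25), MRPL34 (0.24), MRPL44 (0.18) and MRPS12 (0.036). With the trends removed, with and without the block, they were MRPL44 with HCC+ (0.155) and HCC- (0.24), MRPL45 with HCC- (0.26), MRPL35 between sources at 1.2 mg/mL (-0.20 and -0.21), MRPS34 (-0.005) and MRPL4 (-0.03) with HCC- at 0.048 mg/mL, and MRPS34 between sources there (0.008). The cause was not tested. Over 109 pairs of a named gene and a comparison, 1362 of 1586 alternatives kept direction and side of the threshold, 119 lost a call, 15 gained one and these 19 turned. Another 71 turned without a call in either, among them MRPL36 with HCC- (0.15) and MRPL44 with HCC+ (0.08) under the total count and MRPS35 with HCC+ (0.008) with the trends removed.

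The replicate block gave 48 and 63 members lower at 1.2 mg/mL with HCC+ and HCC-, against 47 and 63 without it. Of 63 pairs of libraries with a shared replicate number, 1 had a correlation of residuals over 0.1. These correlations run over all tested genes, many with few counts, so they cannot exclude a pairing of libraries. Few counts limit MRPS24 and MRPL38.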
